A study of Mus musculus with 9 samples.

Results

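The genes described here encode secreted matrix proteoglycans, the enzymes that make hyaluronan, and a hyaluronan receptor. All 10 were taken by gene symbol from the deposited table of 31274 entries. *Dcn* (decorin), *Bgn* (biglycan), *Lum* (lumican) and *Fmod* (fibromodulin) are small leucine-rich proteoglycans, *Vcan* (versican) and *Hspg2* (perlecan) are large proteoglycans, *Has1*, *Has2* and *Has3* are the hyaluronan synthases, and *Cd44* is a cell surface receptor for hyaluronan. A proteoglycan is a core protein that carries sulfated sugar chains. Small leucine-rich proteoglycans bind collagen fibrils and control how they assemble, versican binds hyaluronan in loose, hydrated matrix, and perlecan is a heparan sulfate proteoglycan of basement membranes. Hyaluronan is a long sugar polymer with no core protein, which synthases in the plasma membrane push out into the matrix. In the rodent uterus the stroma around an implantation site remodels its collagen and its hyaluronan as decidualization begins.

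RNA-Seq was performed on whole uteri of C57BL/6 mice on pseudopregnancy day 4.5, in the receptive phase, after mating to vasectomized males, so that no embryos were present. There were 4 control *Wnk1 fl/fl* mice (Wnk1f/f in the labels), which carry *loxP* sites around exon 2 of *Wnk1*, and 5 *Wnk1 d/d* mice, in which Cre driven by the progesterone receptor gene removed that exon. Each mouse gave 1 library. Cre of this kind acts in the cells that express the progesterone receptor, so other cells of the organ keep *Wnk1*, and the labels give neither the age of a mouse nor whether any control carried Cre. Values are FPKM, a fragment count scaled to exon length and to library size, so that levels of different genes can be set side by side. Genes were tested with limma on log2(FPKM + 1), with p-values adjusted over all 14728 genes that had a mean above 1 FPKM in at least 1 genotype. Differentially expressed genes (DEGs), by the study's criteria, reached an adjusted p under 0.05 and differed at least 1.5-fold in mean FPKM.

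All 5 *Wnk1 d/d* libraries had less *Wnk1* than any control, with 29.9 to 33.9 FPKM against 43.4 to 47.3 FPKM (log2 fold change -0.52, standard error (SE) 0.06, adjusted p = 0.0017 by limma), and its FPKM includes exons outside the deletion. The uterine markers *Pgr*, *Esr1*, *Hoxa10*, *Hoxa11*, *Hand2* and *Foxa2* were present in every library at 4.17 FPKM or more, and their sum was 578 to 634 FPKM in *Wnk1 fl/fl* and 387 to 499 FPKM in *Wnk1 d/d* libraries. Of these, *Hoxa10* (ratio 0.684), *Hoxa11* (0.667) and *Hand2* (0.677) were lower at an adjusted p under 0.05 by limma. *Pgr* (ratio 1.07), *Esr1* (1.22) and *Foxa2* (1.16) did not pass the test. Markers of other cell types moved with genotype. All 8 smooth muscle markers rose, and their summed FPKM was 2990 to 6728 in *Wnk1 fl/fl* and 7537 to 14185 in *Wnk1 d/d* libraries. All 7 endothelial markers were lower without overlap, 6 of them as DEGs, with sums of 384 to 424 and 152 to 314 FPKM. Of 8 stromal markers *Col1a1* and *Col1a2* rose while *Pdgfra* and *Pdgfrb* fell as DEGs, and the sums overlapped (2415 to 2796 and 2635 to 3259 FPKM). At an adjusted p under 0.05 by limma 3 were higher, all collagens (also *Col3a1*), and 5 were lower (also *Vim*, *Thy1* and *Hand2*). The overlap of the stromal sums thus hides moves in opposite directions. Epithelial sums overlapped (1102 to 1637 and 1238 to 1859 FPKM, 2 of 8 DEGs), as did leukocyte sums (61.0 to 124 and 49.6 to 85.7 FPKM, 0 of 7 DEGs by limma, 1 at an unadjusted p under 0.05) and mesothelial sums (61.6 to 94.7 and 71.5 to 127 FPKM, 1 of 5 DEGs). The mesothelial sum hides opposite moves too. *Wt1* was lower without overlap (ratio 0.747, adjusted p = 0.02 by limma), while the DEG *Lrrn4* was higher (ratio 3.09). *Msln* (ratio 2.70, without overlap), *Upk3b* (1.96) and *Upk1b* (1.89) also had higher means but did not pass the test. *Fabp4* was the 1 adipose marker tested and rose, while *Adipoq*, *Plin1* and *Cidec* reached at most 0.25 FPKM and *Lep* was listed at 0. *Wnk1 fl/fl* replicate 4 stood apart in liver markers, summed to 158 FPKM against 8.28 to 28.1 FPKM in the other libraries, and in *Wnk1 d/d* replicate 4 a single entry took 70.3% of all FPKM. The part of these shifts in the results below was not tested, except that every fit was repeated without each library.

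**Figure D1:**
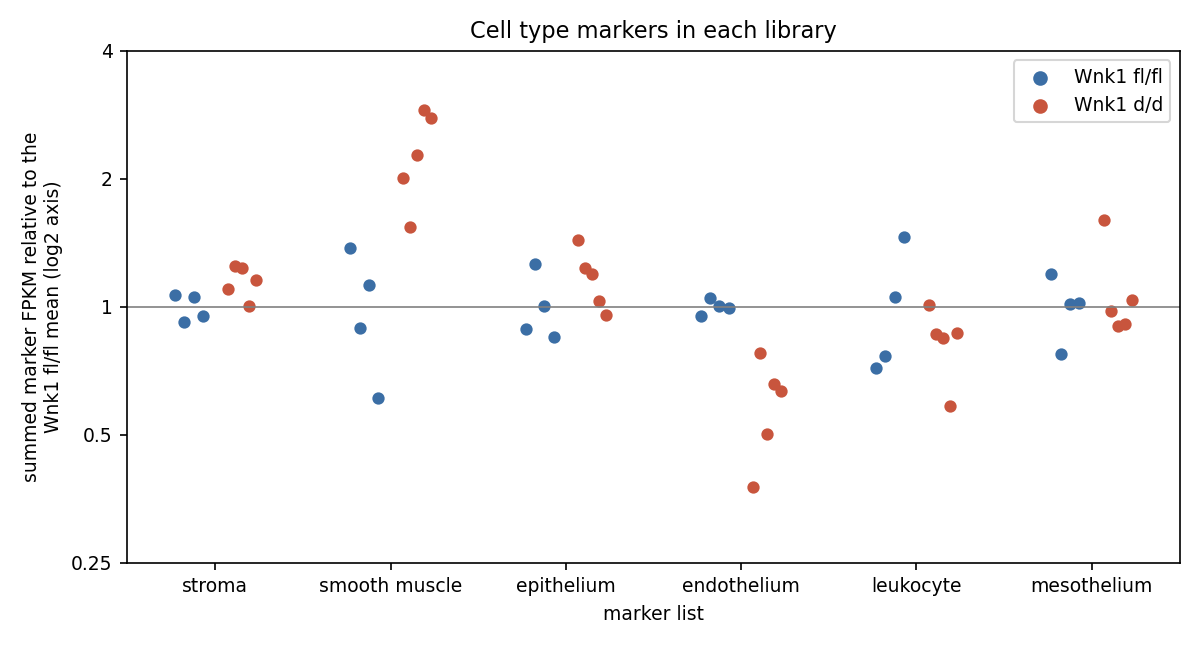
Summed FPKM of 6 marker lists in each library, relative to the mean of the *Wnk1 fl/fl* libraries, on a log2 axis. Each point is 1 library. Smooth muscle sums were higher and endothelial sums lower in all 5 *Wnk1 d/d* libraries than in any *Wnk1 fl/fl* library, while the other 4 lists overlapped. The stromal sum combines collagens that were higher with other markers that were lower. The mesothelial sum combines *Wt1*, which was lower, with other markers whose means were higher.

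The main question was which of these genes differed between the genotypes, and whether the small leucine-rich proteoglycans moved with *Vcan*, the synthases and *Cd44*. *Lum* and *Hspg2* were higher and *Bgn* and *Has2* were lower in *Wnk1 d/d* uteri, each with no overlap between the genotypes. No common direction was seen: *Lum* rose while *Bgn* fell, and *Dcn*, the most abundant of the 10, did not pass the test. Neither did *Vcan*, *Cd44*, *Fmod* or *Has3*. Because whole uterus was sequenced, fewer cells of a type and less RNA per cell cannot be told apart for any of them.

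Of the 10 genes, 9 passed the FPKM filter and were tested, and *Has1* lay under it. An adjusted p under 0.05 was reached by 2 genes with higher FPKM (*Lum*, *Hspg2*) and 2 with lower FPKM (*Bgn*, *Has2*), where 11.1% of all genes tested reached it with higher and 11.0% with lower FPKM. *Lum* was a DEG with higher and *Has2* a DEG with lower FPKM, 2 of 9, beside 10.3% of all genes tested (5.09% with higher and 5.18% with lower FPKM). The libraries of the genotypes did not overlap for 4 of the 9, beside 19.9% of all genes tested. The median log2 fold change was -0.07 over the 9 genes and 0.00 over all genes tested.

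**Figure D2:**
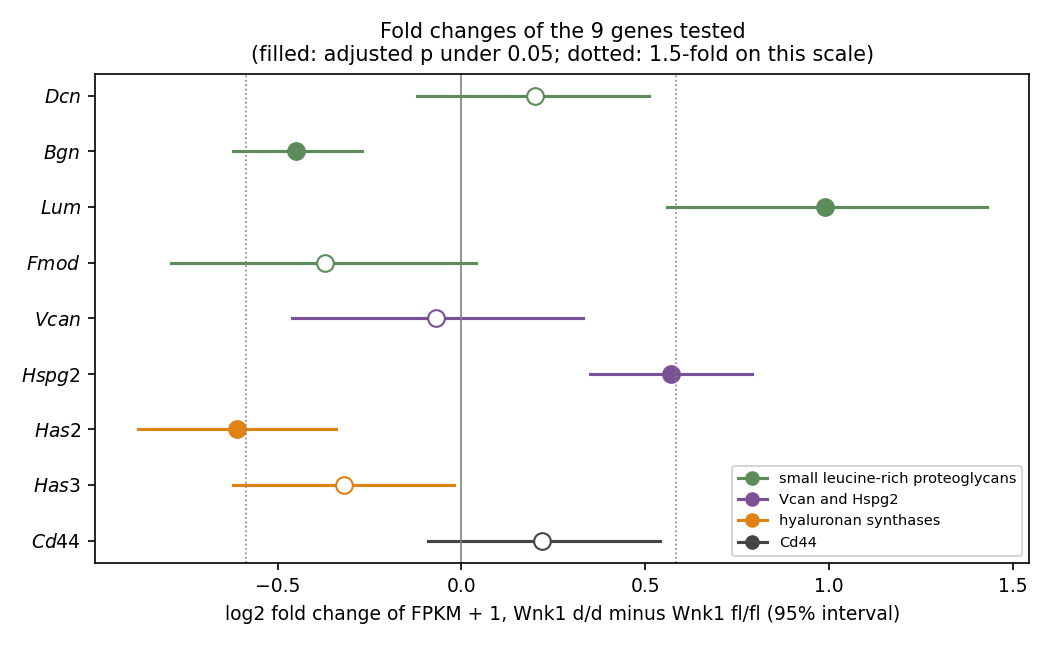
Log2 fold change of FPKM + 1 (*Wnk1 d/d* minus *Wnk1 fl/fl*) of the 9 genes tested, with the 95% interval from limma. Filled points had an adjusted p under 0.05 and dotted lines mark 1.5-fold on this scale. *Lum* (0.99) and *Hspg2* (0.57) lie to the right, and *Bgn* (-0.45) and *Has2* (-0.61) to the left of 0.

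Among the small leucine-rich proteoglycans, *Lum* (chromosome 10, 97565128 to 97572703 on mm10, plus strand) encodes lumican, a keratan sulfate proteoglycan that limits the thickness of collagen fibrils. It had 97.7, 56.9, 99.7 and 85.8 FPKM in *Wnk1 fl/fl* replicates 1 to 4 and 224, 131, 175, 147 and 170 FPKM in *Wnk1 d/d* replicates 1 to 5. The lowest *Wnk1 d/d* library lay above the highest control. *Lum* rose from 85.0 ± 19.7 (SD, n = 4) to 169 ± 35.1 FPKM (SD, n = 5), a ratio of 1.99 (log2 fold change 0.99, SE 0.19, adjusted p = 0.0096 by limma). The exact two-sided permutation test gave p = 0.0079, the smallest that 4 against 5 libraries allow. When any 1 library was left out, its log2 fold change ranged from 0.82 to 1.08. All 8 smooth muscle markers and the collagens *Col1a1* and *Col1a2* rose alongside *Lum*, and their part in this difference was not tested.

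*Dcn* (chromosome 10, 97479609 to 97518143, plus strand) encodes decorin, which carries a chondroitin or dermatan sulfate chain and binds collagen and TGF-β. It lies 47.0 kb before *Lum*, on the same strand. *Dcn* had 618, 444, 554 and 636 FPKM in *Wnk1 fl/fl* and 722, 593, 692, 517 and 699 FPKM in *Wnk1 d/d* libraries. The genotypes overlapped, although 3 of 5 *Wnk1 d/d* libraries lay above every control. The difference did not pass the test (563 ± 86.5 and 645 ± 86.7 FPKM, SD, n = 4 and 5; log2 fold change 0.20, 95% interval -0.12 to 0.51, limma adjusted p = 0.32), and its sign turned with quantile normalization (log2 fold change -0.03). Farther along the same stretch of chromosome 10, *Kera* (keratocan) and *Epyc* (epiphycan), also small leucine-rich proteoglycan genes, had at most 0.18 and 0.02 FPKM in any library.

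*Bgn* (chromosome X, 73483602 to 73495933, plus strand) encodes biglycan, the closest relative of decorin, with a pair of attachment sites for sugar chains. It had 142, 154, 163 and 152 FPKM in *Wnk1 fl/fl* and 106, 119, 117, 97.8 and 120 FPKM in *Wnk1 d/d* libraries. All 5 *Wnk1 d/d* libraries lay below the lowest control. Its libraries were the closest together of the 10 genes, with a coefficient of variation of 5.77% for controls and 8.53% for *Wnk1 d/d*. *Bgn* fell to a ratio of 0.733 (153 ± 8.82 to 112 ± 9.56 FPKM, SD, n = 4 and 5; log2 fold change -0.45, SE 0.08, adjusted p = 0.0073 by limma; exact two-sided permutation p = 0.0079), which is short of the fold criterion for a DEG. The stromal markers other than collagens and the endothelial markers fell alongside *Bgn*, and their part was not tested.

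*Fmod* (chromosome 1, 134037254 to 134048277, plus strand) encodes fibromodulin, a keratan sulfate proteoglycan that shares collagen sites with lumican. It had 4.20, 3.53, 6.28 and 3.17 FPKM in *Wnk1 fl/fl* and 2.79, 3.20, 4.02, 2.02 and 3.20 FPKM in *Wnk1 d/d* libraries. The genotypes overlapped. The difference did not pass the test (ratio 0.709, log2 fold change -0.37, 95% interval -0.79 to 0.04, limma adjusted p = 0.17). *Lum* and *Fmod*, which bind the same region of collagen, thus had fold changes of opposite sign, of which only that of *Lum* passed the test.

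**Figure D3:**
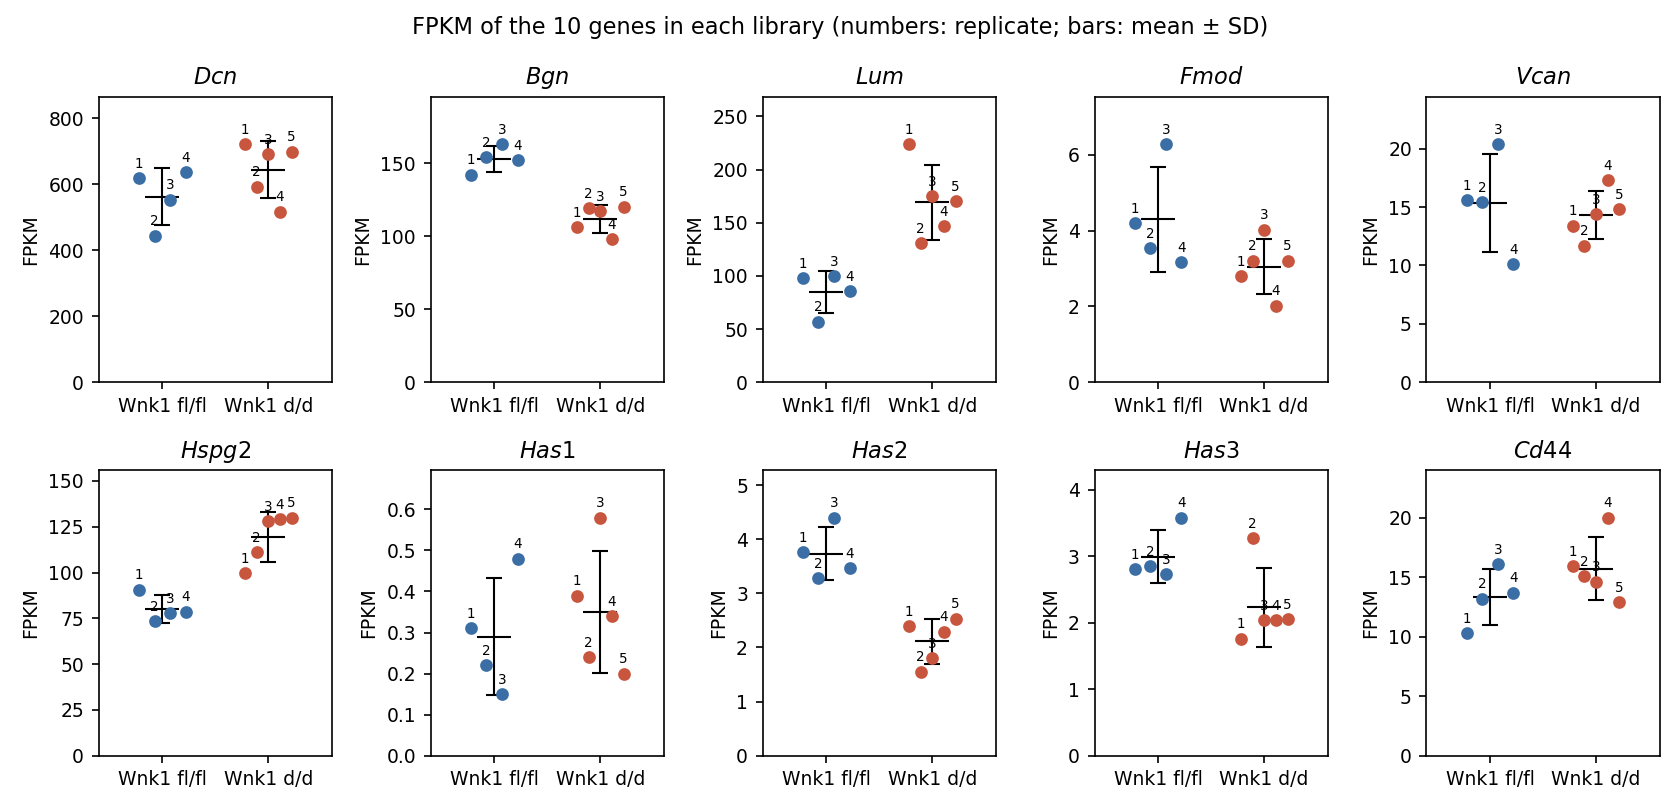
FPKM of the 10 genes in each library, with the mean and SD of each genotype as bars and replicate numbers beside the points. Each panel starts at 0. *Bgn*, *Lum*, *Hspg2* and *Has2* show no overlap between the genotypes.

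The order of levels differed between the genotypes. In *Wnk1 fl/fl* uteri mean FPKM ran from *Dcn* (563) through *Bgn* (153), *Lum* (85.0), *Hspg2* (80.1), *Vcan* (15.4), *Cd44* (13.3), *Fmod* (4.29), *Has2* (3.73) and *Has3* (2.99) to *Has1* (0.290), and the ranges of *Lum* and *Hspg2*, of *Vcan* and *Cd44*, of *Fmod* and *Has2*, and of *Has2* and *Has3* overlapped. In *Wnk1 d/d* uteri *Dcn* (645) was followed by *Lum* (169), *Hspg2* (120) and *Bgn* (112), with *Hspg2* and *Bgn* overlapping. *Lum* was above *Bgn* in 5 of 5 *Wnk1 d/d* and 0 of 4 *Wnk1 fl/fl* libraries. The ratio of *Lum* to *Bgn* FPKM was 0.690, 0.369, 0.611 and 0.564 in *Wnk1 fl/fl* and 2.10, 1.10, 1.49, 1.51 and 1.42 in *Wnk1 d/d* libraries. As a share of the summed FPKM of *Dcn*, *Bgn*, *Lum* and *Fmod*, *Lum* took 10.5% ± 1.55 (SD, n = 4) in *Wnk1 fl/fl* and 18.2% ± 2.18 (SD, n = 5) in *Wnk1 d/d* uteri, while *Bgn* took 19.3% ± 3.11 and 12.2% ± 1.43. The share of *Dcn* was 69.7% ± 2.75 and 69.3% ± 1.23. The sum itself overlapped, at 659 to 877 FPKM in *Wnk1 fl/fl* and 764 to 1054 FPKM in *Wnk1 d/d* libraries. These ratios and shares are descriptions of genes chosen with their results known and were given no test.

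The large proteoglycans differed from each other. *Hspg2* (chromosome 4, 137468769 to 137570630, plus strand) had 90.7, 73.3, 77.7 and 78.7 FPKM in *Wnk1 fl/fl* and 99.6, 111, 128, 129 and 130 FPKM in *Wnk1 d/d* libraries. Every *Wnk1 d/d* library was above every control. *Hspg2* rose to a ratio of 1.49 (80.1 ± 7.46 to 120 ± 13.6 FPKM, SD, n = 4 and 5; log2 fold change 0.57, SE 0.10, adjusted p = 0.0069 by limma; exact two-sided permutation p = 0.016). That ratio stopped just short of the fold criterion, and *Hspg2* was a DEG in the fits without *Wnk1 fl/fl* replicate 1, without *Wnk1 d/d* replicate 1 and without *Wnk1 d/d* replicate 2. Endothelium and smooth muscle both lay down perlecan, and their marker sums moved in opposite directions here. The part of either in the *Hspg2* difference was not tested.

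*Vcan* (chromosome 13, 89655312 to 89742509, minus strand) had 15.6, 15.4, 20.4 and 10.1 FPKM in *Wnk1 fl/fl* and 13.4, 11.7, 14.4, 17.3 and 14.8 FPKM in *Wnk1 d/d* libraries. All *Wnk1 d/d* libraries lay within the range of the controls. No difference was detected (ratio 0.932, log2 fold change -0.07, 95% interval -0.46 to 0.33, limma adjusted p = 0.8), although the interval still holds changes of up to 0.46 on the log2 scale. Leaving out 1 library moved the log2 fold change between -0.24 (without *Wnk1 fl/fl* replicate 4) and 0.07 (without *Wnk1 fl/fl* replicate 3). *Vcan* has 8 annotated coding transcripts, which differ in the segments that carry chondroitin sulfate, and gene FPKM does not separate them. *Hspg2* was 3.81 to 7.81 times *Vcan* in *Wnk1 fl/fl* and 7.44 to 9.51 times *Vcan* in *Wnk1 d/d* libraries.

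Promoter sequence is shown for *Hspg2* and *Bgn*, which moved in opposite directions and have an entry among the RefSeq windows (build GRCm38.p6), as 6 of the 10 genes do. *Lum*, *Dcn*, *Has2* and *Has3* have none there. Capitals mark GGGCGG or its reverse complement CCGCCC, the GC box bound by Sp1-type factors, and neighbouring copies may overlap. Both runs are on the plus strand, 5′ to 3′, and end before the first annotated transcript start. They lie at chr4:137468553-137468768 (*Hspg2*) and chrX:73483351-73483600 (*Bgn*).
Hspg2: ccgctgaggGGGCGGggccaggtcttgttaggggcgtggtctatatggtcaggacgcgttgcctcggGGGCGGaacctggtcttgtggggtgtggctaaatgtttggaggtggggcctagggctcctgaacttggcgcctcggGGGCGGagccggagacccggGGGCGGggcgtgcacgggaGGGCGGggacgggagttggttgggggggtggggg
Bgn: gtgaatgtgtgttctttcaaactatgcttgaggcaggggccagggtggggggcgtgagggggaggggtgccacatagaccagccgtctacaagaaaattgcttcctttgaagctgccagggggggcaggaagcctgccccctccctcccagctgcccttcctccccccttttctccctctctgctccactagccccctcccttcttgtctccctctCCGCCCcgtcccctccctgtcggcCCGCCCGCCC
In the 250 bases before the RefSeq start *Hspg2* held 5 and *Bgn* 3 GC boxes, a motif found in 32.7% of 32851 such windows. *Vcan* held 2, and *Fmod*, *Cd44* and *Has1* held 0. The steroid receptor element AGAACA (either strand, in 16.1% of windows) was present in the *Bgn* window, and GGTCA, one arm of an estrogen response element (35.2%), in those of *Hspg2* and *Has1*. The FOXO element GTAAACA (3.17%) was in none of the 6. The GC boxes were thus shared by a gene that rose, a gene that fell and a gene that did not pass the test.

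Among the hyaluronan synthases, *Has2* (chromosome 15, 56665627 to 56694539, minus strand) is the main synthase of most embryonic and stromal tissues. It had 3.76, 3.28, 4.40 and 3.47 FPKM in *Wnk1 fl/fl* and 2.39, 1.55, 1.80, 2.29 and 2.53 FPKM in *Wnk1 d/d* libraries. All 5 *Wnk1 d/d* libraries lay below every control. *Has2* fell to a ratio of 0.567 (3.73 ± 0.490 to 2.11 ± 0.417 FPKM, SD, n = 4 and 5; log2 fold change -0.61, SE 0.12, adjusted p = 0.01 by limma; exact two-sided permutation p = 0.0079). On the log2(FPKM + 1) scale the change of so low a gene is understated, and with a pseudocount of 0.01 the log2 fold change was -0.83. Of its 4237 exonic bases, 182 also belong to the antisense gene *Has2os*, which had a mean of 1.82 FPKM in *Wnk1 fl/fl* and 1.03 FPKM in *Wnk1 d/d* uteri. Counting by strand is not stated, so reads from these shared bases cannot be assigned. The stromal markers other than collagens and the endothelial markers fell alongside *Has2* too, and their part was not tested.

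*Has3* (chromosome 8, 106870242 to 106884566, plus strand), which makes shorter hyaluronan chains, had 2.80, 2.85, 2.73 and 3.58 FPKM in *Wnk1 fl/fl* and 1.76, 3.27, 2.04, 2.04 and 2.05 FPKM in *Wnk1 d/d* libraries. In 4 of 5 *Wnk1 d/d* libraries it lay below every control, and *Wnk1 d/d* replicate 2 lay above 3 of the 4 controls. It did not pass the test (ratio 0.746, log2 fold change -0.32, 95% interval -0.62 to -0.02, limma adjusted p = 0.11), whereas without *Wnk1 d/d* replicate 2 it did (ratio 0.660, log2 fold change -0.42, limma adjusted p = 0.014). Its exons share 352 of 6380 bases with *Chtf8* on the other strand, a gene at 63.1 and 63.7 FPKM in the 2 genotypes. Reads from these bases cannot be assigned either, and *Chtf8* lay far above *Has3*. What part of *Has3* FPKM, and so of the synthase sums and shares, such reads make up was not tested.

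*Has1* (chromosome 17, 17843323 to 17855205, minus strand), the synthase that responds to cytokines in many cells, had 0.31, 0.22, 0.15 and 0.48 FPKM in *Wnk1 fl/fl* and 0.39, 0.24, 0.58, 0.34 and 0.20 FPKM in *Wnk1 d/d* libraries. The genotypes overlapped (exact two-sided permutation p = 0.55), and no difference was detectable at this level. The summed FPKM of the synthases was 6.87, 6.35, 7.28 and 7.53 in *Wnk1 fl/fl* and 4.54, 5.06, 4.42, 4.67 and 4.78 in *Wnk1 d/d* libraries. These sums did not overlap. Among *Wnk1 d/d* libraries their spread was smaller than that of *Has2* or *Has3*, since the library with the most *Has3* (replicate 2) had the least *Has2*. Among *Wnk1 fl/fl* libraries the spread of the sums was the larger (SD 0.516, against 0.490 for *Has2* and 0.396 for *Has3*). *Has2* took 46.1% to 60.4% of the sum in *Wnk1 fl/fl* and 30.6% to 52.9% in *Wnk1 d/d* libraries.

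*Cd44* (chromosome 2, 102811141 to 102901665, minus strand) had 10.3, 13.2, 16.1 and 13.7 FPKM in *Wnk1 fl/fl* and 15.9, 15.1, 14.6, 20.0 and 12.9 FPKM in *Wnk1 d/d* libraries. Only *Wnk1 d/d* replicate 4 lay above every control. The difference did not pass the test (13.3 ± 2.37 and 15.7 ± 2.63 FPKM, SD, n = 4 and 5; log2 fold change 0.22, 95% interval -0.09 to 0.54, limma adjusted p = 0.26). Its 8 annotated coding transcripts include variant exons that gene FPKM does not separate. *Cd44* is also carried by leukocytes, whose marker sums overlapped between the genotypes.

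Set against the hyaluronan system, the small leucine-rich proteoglycans gave ratios that separated the genotypes over the synthases but overlapped over *Vcan* and over *Cd44*. The summed FPKM of *Dcn*, *Bgn*, *Lum* and *Fmod* was 125, 104, 113 and 116 times that of the synthases in *Wnk1 fl/fl* and 232, 167, 224, 164 and 208 times in *Wnk1 d/d* libraries, with no overlap. Relative to *Vcan* the sum was 40.4 to 87.1 times in *Wnk1 fl/fl* and 44.2 to 78.8 times in *Wnk1 d/d* libraries, and relative to *Cd44* it was 50.1 to 83.8 and 38.3 to 76.9 times, both with overlap. Gene by gene, *Lum* over *Vcan* was 3.70 to 8.52 in *Wnk1 fl/fl* and 8.52 to 16.7 in *Wnk1 d/d* libraries, which touched at the printed precision, whereas *Dcn* over *Vcan* (27.2 to 63.1 and 29.9 to 53.9), *Bgn* over *Vcan* (8.01 to 15.1 and 5.66 to 10.1) and *Fmod* over *Vcan* (0.229 to 0.315 and 0.117 to 0.280) overlapped. *Dcn* made up most of the small leucine-rich proteoglycan sum, which therefore follows *Dcn* more than the other 3 genes. That sum had a ratio of genotype means of 1.15, with overlap. The synthase sum changed more, with a ratio of 0.670 and no overlap, so the separation over the synthases owes more to the synthases. These ratios are descriptions with no test, and the synthase sums carry the limit given for *Has3*.

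**Figure D4:**
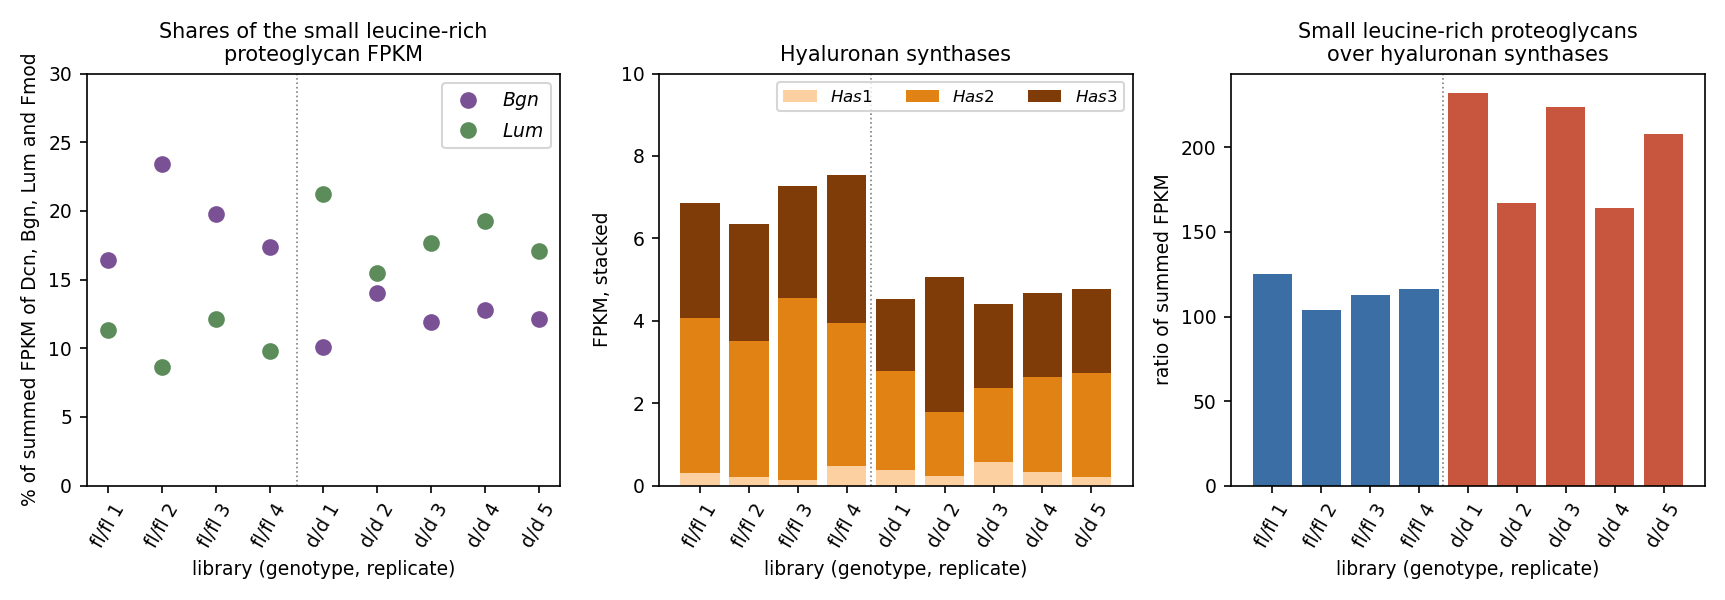
Left, the percentage of the summed FPKM of *Dcn*, *Bgn*, *Lum* and *Fmod* taken by *Bgn* and by *Lum* in each library. Middle, stacked FPKM of the synthases, and right, the ratio of the summed small leucine-rich proteoglycans to the summed synthases (104 to 125 in *Wnk1 fl/fl* and 164 to 232 in *Wnk1 d/d* libraries).

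Other genes of the same pathways were taken from 8 lists that hold 122 genes, of which 94 passed the FPKM filter. As DEGs 12 of these rose and 6 fell, or 19.1% beside 10.3% of all genes tested, and the median log2 fold change was 0.03. Among the other small leucine-rich proteoglycans, 4 of 9 tested rose and 1 fell as DEGs. *Tsku* was also lower without overlap (adjusted p = 0.0095 by limma), at a ratio of 0.687 that is short of the fold criterion. *Ogn* (osteoglycin) had 21.0 to 42.2 FPKM in *Wnk1 fl/fl* and 62.7 to 91.9 FPKM in *Wnk1 d/d* libraries (log2 fold change 1.22, SE 0.20, adjusted p = 0.0055 by limma). *Optc* (opticin) had 6.66 to 13.6 and 18.8 to 30.7 FPKM, and *Aspn* (asporin), a relative of decorin without sugar chains, had 4.01 to 9.64 and 12.0 to 21.4 FPKM. Like *Lum*, these 3 genes had every *Wnk1 d/d* library above every control. *Podn* (podocan) rose from 1.02 to 2.04 FPKM with overlap, and *Ecm2*, which is outside the rule for named genes and was added after its values were seen, fell from 6.91 to 4.22 FPKM. *Prelp*, 116 kb from *Fmod* on chromosome 1, had 31.8 and 35.6 FPKM (limma adjusted p = 0.31). Smooth muscle markers, *Col1a1* and *Col1a2* rose alongside this list too, and their part was not tested.

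Among other hyalectans and basement membrane proteoglycans, 0 of 6 tested rose and 2 fell as DEGs by limma (33.3%, beside 10.3% of all genes tested). *Col18a1*, the core protein from which endostatin is cut, had 127 to 159 FPKM in *Wnk1 fl/fl* and 52.5 to 98.2 FPKM in *Wnk1 d/d* libraries (log2 fold change -0.89, SE 0.17, adjusted p = 0.0096 by limma), the opposite direction to *Hspg2*. *Spock2* (testican) had 58.3 to 84.8 and 31.4 to 50.8 FPKM. *Agrn* (agrin), which like perlecan carries heparan sulfate, had 89.0 and 73.2 FPKM without passing the test (limma adjusted p = 0.27). At an unadjusted p under 0.05 the number higher was also 0. Endothelial markers and stromal markers other than collagens fell alongside *Col18a1*, and their part was not tested.

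Genes that bind or break down hyaluronan were tested next. Of 12 binding genes tested 2 rose and 0 fell as DEGs by limma (16.7%, beside 10.3% of all genes tested). At an unadjusted p under 0.05 1 was lower, *Tnfaip6*, which moves protein chains onto hyaluronan, and it also had an adjusted p under 0.05 (0.03 by limma) with a ratio of 0.694. *Itih5*, which encodes a heavy chain of the family that can be joined to hyaluronan, had 23.6 to 43.4 FPKM in *Wnk1 fl/fl* and 57.8 to 76.6 FPKM in *Wnk1 d/d* libraries (log2 fold change 0.98, SE 0.15, adjusted p = 0.005 by limma). *Hmmr*, a hyaluronan receptor that also binds the mitotic spindle, rose from 2.52 to 4.18 FPKM with overlap. Beside 5.09% of all genes tested, 1 of 8 breakdown genes rose as a DEG. It was *Hyal1*, a lysosomal hyaluronidase, with 16.6 to 22.1 and 27.8 to 35.9 FPKM (log2 fold change 0.76, SE 0.10, adjusted p = 0.0029 by limma), but 1920 of its 3777 exonic bases are also annotated to *Naa80* on the same strand, so its reads cannot all be assigned. *Has2* and *Hyal1* thus moved in opposite directions, with no overlap between the genotypes for either. The breakdown genes had no common direction, with a median log2 fold change of -0.13. At an unadjusted p under 0.05 by limma *Hyal2* was also higher (ratio 1.17), while *Hyal3* (0.640) and *Tmem2* (0.846) were lower.

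The cell surface and granule proteoglycans gave 1 DEG in each direction among 14 tested (14.3%, beside 10.3% of all genes tested), both glypicans. *Gpc4* had 9.56 to 12.7 FPKM in *Wnk1 fl/fl* and 18.3 to 22.1 FPKM in *Wnk1 d/d* libraries (log2 fold change 0.84, SE 0.09, adjusted p = 0.0014 by limma), and *Gpc6* had 9.40 to 12.8 and 6.13 to 8.01 FPKM (log2 fold change -0.58, SE 0.10, adjusted p = 0.006 by limma). Neither glypican overlapped between the genotypes. Syndecans with an adjusted p under 0.05 but a ratio short of 1.5 were *Sdc1* (1.31) and *Sdc3* (1.39). At an unadjusted p under 0.05 by limma 4 genes of the list were higher and 5 lower. Among the lower were the glypicans *Gpc1* (ratio 0.859), *Gpc2* (0.765) and *Gpc3* (0.790), which did not pass after adjustment.

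Among enzymes that build the sugar chains, DEGs made up 14.3% of the genes for sugar nucleotides and the linkage region, 12.5% of those for chondroitin and dermatan sulfate and 6.67% of those for heparan sulfate, beside 10.3% of all genes tested. Of 14 genes for sugar nucleotides and the linkage region, *Ugp2*, which makes UDP-glucose, rose from 40.1 to 61.6 FPKM without overlap and *Gfpt2*, which starts the hexosamine pathway, fell from 5.87 to 3.72 FPKM with overlap. *Ugdh*, which makes the UDP-glucuronic acid that both hyaluronan and the sulfated chains need, had 29.0 and 29.9 FPKM (limma adjusted p = 0.73). Of 16 genes for chondroitin and dermatan sulfate, 2 rose and 0 fell as DEGs by limma (2 were lower at an unadjusted p under 0.05, of which *Csgalnact1* had an adjusted p of 0.048 and a ratio of 0.679), and both that rose encode 4-O-sulfotransferases of chondroitin. *Chst11* had 7.19 to 9.68 FPKM in *Wnk1 fl/fl* and 16.9 to 21.5 FPKM in *Wnk1 d/d* libraries (log2 fold change 1.12, SE 0.10, adjusted p = 0.0012 by limma), and *Chst13* rose from 1.10 ± 0.465 (SD, n = 4) to 5.45 ± 3.02 FPKM (SD, n = 5), where the highest library, *Wnk1 d/d* replicate 3, had 10.7 FPKM. Of 15 heparan sulfate genes 1 rose and 0 fell as DEGs by limma. The DEG was *Sulf2*, which removes sulfate from heparan sulfate outside the cell, with 17.9 to 25.1 and 35.0 to 55.3 FPKM (log2 fold change 0.96, SE 0.14, adjusted p = 0.0038 by limma). The 2 that were lower at an unadjusted p under 0.05 also passed after adjustment, without overlap between the genotypes and short of the fold criterion. They were *Extl3* (ratio 0.707, adjusted p = 0.0053 by limma) and *Hs3st1* (ratio 0.688, adjusted p = 0.023 by limma), which encode a glycosyltransferase and a 3-O-sulfotransferase of heparan sulfate. Genes of the lists that are named without being DEGs were chosen after their values were seen.

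**Figure D5:**
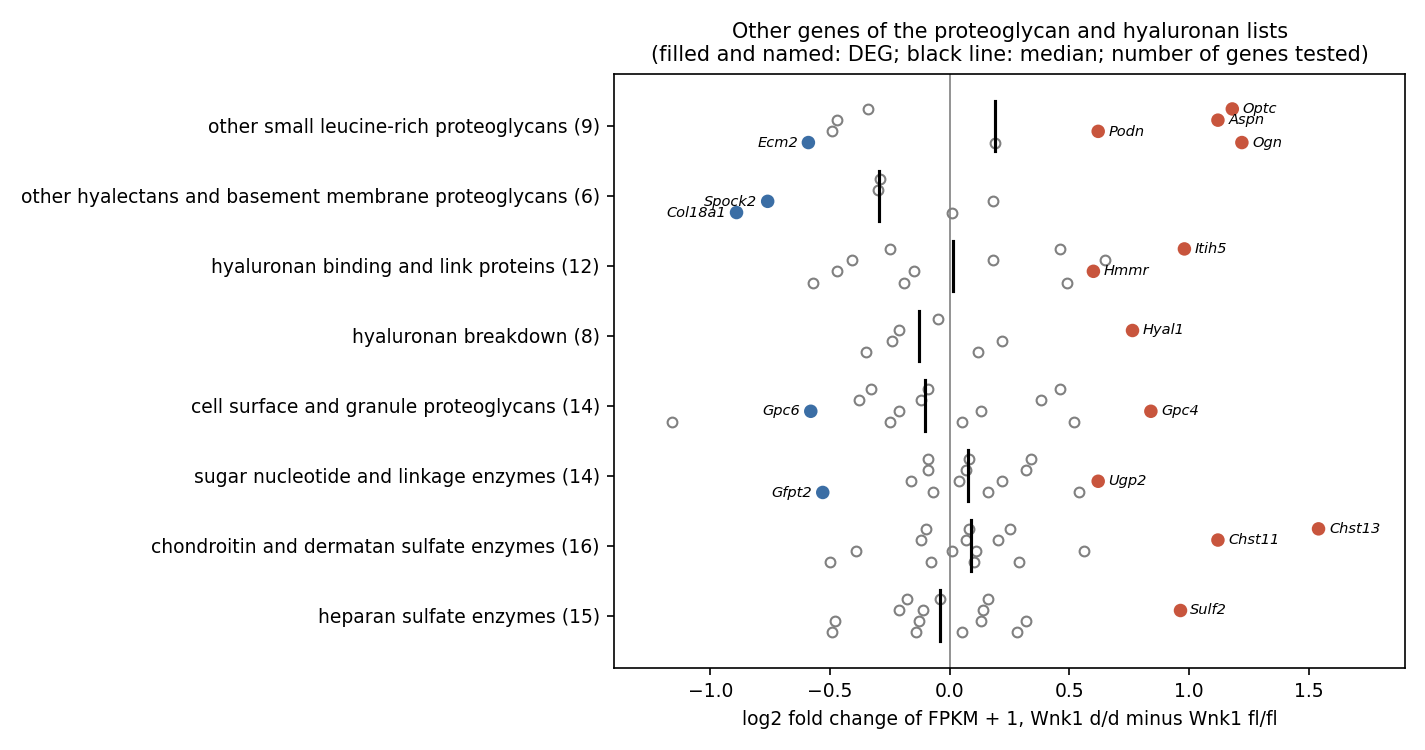
Log2 fold change of FPKM + 1 (*Wnk1 d/d* minus *Wnk1 fl/fl*) of genes tested in the 8 lists, with the median of a list as a black line and the DEGs shown filled and named. The 4 DEGs with higher FPKM among the other small leucine-rich proteoglycans lie between 0.62 and 1.22.

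Genes with the profile most like that of the 2 DEGs were found from the root mean square difference of centred log2(FPKM + 1) over the 9 libraries. For *Lum* these were *Cpa3* (0.154), *Aspn* (0.190) and *Spon2* (0.195), where the profile of *Lum* itself had a root mean square of 0.57. *Cpa3* encodes a mast cell protease and had 2.05 to 5.31 FPKM in *Wnk1 fl/fl* and 6.27 to 10.5 FPKM in *Wnk1 d/d* libraries, while *Spon2* encodes a secreted matrix protein. For *Has2* they were *Cldn1* (0.129), the targeted gene *Wnk1* (0.136) and *Nalcn* (0.139), where *Has2* itself had 0.34. This is a description of 9 libraries that differ by genotype, and genes with a like difference between genotypes come out as alike by construction.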

How the data were processed

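Uterine RNA was sequenced as 1 library per mouse, from 4 control and 5 *Wnk1 d/d* mice. The authors filtered paired-end reads on quality, aligned them to mm10 (TopHat2 version 2.0.4 and Cufflinks version 2.0.2 in the submitters' processing notes) and deposited FPKM values per gene symbol, without pooling. The gene annotation and strand handling are not given in the sources used here. Columns were matched to mice by their labels, and replicate numbers come from the sample titles.

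FPKM was used as deposited, so Cuffdiff, which needs reads, was not rerun. Genes with a mean above 1 FPKM in at least 1 genotype were tested on log2(FPKM + 1) with limma 3.58.1 in R 4.3.3 (trend, unpaired). P-values were adjusted by Benjamini-Hochberg over 14728 genes, and DEGs were those under 0.05 whose mean FPKM differed at least 1.5-fold. Exact two-sided permutation tests were run over the 9 libraries. Named genes were the 10 members and, per list, up to 4 DEGs with the largest fold change. The members, the lists and the tests were chosen with earlier results of these data known. Exon overlaps and coordinates come from GENCODE M21.

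FPKM does not give the depth, which is unknown, so no counting intervals were computed. Steps in the low values of 6 entries put the relative worth of 1 fragment between 0.841 and 1.12. The median of log2(FPKM + 1) over the tested genes was 3.79 to 3.82 in the libraries. Alternatives were pseudocounts of 0.1 and 0.01, no filter and 5 FPKM, median scaling, quantile normalization, no trend, robust estimation, library weights, a replicate block, ratios of 1.2 and 2, and leaving out each library. Replicates are separate mice per the labels. For 1 gene of the wider lists the result is neither reported nor plotted here, although the counts and medians include it.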

Additional observations from a re-analysis of the deposited data

Results flagged for a closer look

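In 4 of 54 groups of libraries looked at (the 10 genes and the named genes of the wider lists, each in both genotypes), 1 library stood farther from the others than Dixon's 95% value allows, which chance does in about 1 group of 20. *Has3* stood apart in both genotypes, at 3.58 FPKM in *Wnk1 fl/fl* replicate 4, where the other controls had 2.73 to 2.85 FPKM, and at 3.27 FPKM in *Wnk1 d/d* replicate 2, where the others had 1.76 to 2.05 FPKM. *Ugp2* was low in *Wnk1 d/d* replicate 2, at 52.3 FPKM against 62.7 to 66.5 FPKM. *Chst13* was high in *Wnk1 d/d* replicate 3, at 10.7 FPKM against 3.42 to 5.15 FPKM.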

How the results depend on the processing

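Of the 10 genes 2 were DEGs, and 1 was (*Lum*) with a filter of 5 FPKM, which leaves *Has2* untested, or with the replicate block. A ratio of at least 1.2 gave 4, and a ratio of at least 2 gave 0 by limma, also at an unadjusted p under 0.05, which 5 genes reached without a ratio. Leaving out 1 library gave 2 to 4 DEGs, with 4 (*Has2*, *Has3*, *Hspg2* and *Lum*) without *Wnk1 d/d* replicate 2. An adjusted p under 0.05 was reached by 4 genes, by 1 (*Lum*) with the replicate block and by 4 to 5 without 1 library. The block gave an adjusted p of 0.064 for *Bgn*, 0.082 for *Hspg2* and 0.063 for *Has2*, and 218 DEGs over all genes instead of 1513. Replicate numbers belong to different mice: deviations of the 4 same-numbered pairs correlated at -0.27 to 0.02, so the numbers share only a name. The wider lists had 18 DEGs, 7 with the block, 13 to 21 without 1 library, and 31 genes with an adjusted p under 0.05 and no ratio, a count added after the data were seen. Log2 fold changes turned sign for *Dcn* with quantile normalization (-0.03) and for *Vcan* without *Wnk1 fl/fl* replicate 3 (0.07, leave-one-out range -0.24 to 0.07). *Lum* kept an adjusted p under 0.05 in all 19 alternatives, and *Bgn* and *Hspg2* in 18 of 19 each. *Has2* kept it in 17 of the 18 that tested it. Depth, which FPKM does not state, limits the low genes *Has1*, *Has2*, *Has3* and *Fmod* most.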
